A study of Mus musculus with 13 samples.

Results

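The genes described here are 36 genes of endoplasmic reticulum stress and protein folding, taken by symbol from a list of genes with known roles there. All 36 were measured, among 15437 genes on the arrays. They fall into 4 branches: 17 chaperones and folding enzymes, 8 genes of degradation, 4 genes that hold the stress sensors and Xbp1, and 7 genes that hold Atf4 and its targets. Transcript levels came from the sciatic nerve of 24-week-old mice of the BKS strain. Heterozygous db/+ mice carry a single copy of a leptin receptor mutation and served as controls. Homozygous db/db mice carry the mutation on both copies, lack normal leptin signalling in every tissue and become obese and diabetic. There were 7 db/+ arrays (samples 101, 103, 104, 105, 106, 404 and 407) and 6 db/db arrays (samples 110, 111, 112, 409, 410 and 411), with no treatment named for either group. The sample numbers form 2 series, 101 to 112 and 404 to 411, and what they mark is not stated. The labels do not state that each sample came from a separate animal, so the p-values describe the spread among the samples as deposited, and the small number of arrays sets the precision.

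The endoplasmic reticulum folds secreted and membrane proteins, and in nerve the myelin proteins of Schwann cells and the collagens of fibroblasts pass through it. Chaperones and disulfide isomerases assist folding, and proteins that fail to fold are carried back to the cytosol and degraded, a route called ER-associated degradation. When unfolded proteins build up, the sensors IRE1 (gene Ern1), ATF6 and PERK (gene Eif2ak3) act through the transcription factors XBP1, cleaved ATF6 and ATF4 to raise these genes, a program called the unfolded protein response. The sensors are switched on through RNA splicing, cleavage and phosphorylation, which an array of transcript levels does not measure.

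The factors of this response bind known letters in promoters, and the sites below show where those letters lie in a part of the members that hold them. In 300-base RefSeq windows of build GRCm38.p6 (250 bases before to 50 after each gene start), both strands were searched for 4 patterns. The first, the ER stress response element ERSE of ATF6 and XBP1, is CCAAT, then 9 bases of any kind, then CCACG. It stood in 39 of 32851 windows (0.119%) and in 9 of the 32 members with a window, 7 of them chaperones (Calr, Canx, Creld2, Dnajc3, Hsp90b1, Hspa5 and Pdia6) and 2 degradation genes (Derl3 and Syvn1). The second, ERSE-II, is ATTGG, then 1 base, then CCACG, in 12 windows (0.0365%) and in Dnajb11 and Herpud1. The third, the XBP1 core TGACGTGG, stood in 222 windows (0.676%) and in 0 members. The fourth, the composite ATF4 letters TTGCATCA, stood in 294 windows (0.895%) and in Chac1 and Herpud1. The patterns share letters, since ATTGG is CCAAT read on the opposite strand and both ERSE forms hold CCACG. Hyou1, Manf, Derl1 and Atf6 are the 4 members with no window in the table. A match is a description of the letters and no evidence of binding.

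Sites are printed on the gene's strand with 10 bases on either side and the searched letters in capitals. All lie before the gene start, outside the transcript. The Hspa5 site lies at chr2:34772015-34772053 on the plus strand, its capitals 65 to 47 bases before the start. The Hsp90b1 site, the more distant of 2, lies at chr10:86705628-86705666 on the minus strand, 212 to 194 bases before the start. Pdia6 holds its site at chr12:17266481-17266519 (plus, 98 to 80 bases before the start) and Syvn1 at chr19:6046522-6046560 (plus, 44 to 26). In Creld2, at chr15:88819510-88819548 (plus, 126 to 108), and in Derl3, at chr10:75893232-75893270 (plus, 156 to 138), the element is turned around, so the capitals read CGTGG first. Herpud1 holds ERSE-II at chr8:94386367-94386397 (plus, 52 to 42) and the ATF4 letters at chr8:94386307-94386334 (plus, 112 to 105), and Chac1 holds the ATF4 letters at chr2:119351039-119351066 (plus, 193 to 186).
Hspa5 ERSE: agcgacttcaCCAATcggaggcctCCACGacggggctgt
Hsp90b1 ERSE: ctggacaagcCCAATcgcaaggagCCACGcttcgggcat
Pdia6 ERSE: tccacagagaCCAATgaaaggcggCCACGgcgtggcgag
Syvn1 ERSE: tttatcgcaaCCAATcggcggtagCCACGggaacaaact
Creld2 ERSE: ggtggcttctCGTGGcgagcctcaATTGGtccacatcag
Derl3 ERSE: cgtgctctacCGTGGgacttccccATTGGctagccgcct
Herpud1 ERSE-II: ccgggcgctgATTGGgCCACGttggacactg
Herpud1 ATF4 letters: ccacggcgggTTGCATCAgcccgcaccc
Chac1 ATF4 letters: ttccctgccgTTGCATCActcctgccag

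The db/+ arrays were not alike, and this bears on every comparison below. The mean log2 level of 7 measured neuronal markers (of 8 listed) ran from 10.81 to 11.48 in db/+ 101, 103, 104 and 106 and only from 7.46 to 8.48 in db/+ 105, 404 and 407. It ran from 6.53 to 7.23 in db/db. Genotype was therefore compared over all 13 arrays and again over 9 arrays, without those 4 db/+ arrays. The 2 comparisons share the 6 db/db and 3 of the db/+ arrays. Of 6 markers of myelinating Schwann cells 3 were measured, and Mbp (12.90 to 13.46) and Pmp22 (13.45 to 13.98) were high on every array. The third, Mag, ran from 7.67 to 9.99 in db/+ and from 6.59 to 8.51 in db/db, and it was lower over all arrays (log2 -1.13, limma adjusted p = 0.0435) with no call over the 9 arrays (-0.55). The mean of the 3 ran from 11.43 to 12.48 in db/+ and from 10.98 to 11.86 in db/db, and its part in the differences below was not tested. Skeletal muscle markers ranged from 6.61 to 11.96 among db/+ and from 6.69 to 11.86 among db/db arrays. In bulk tissue, fewer cells of a type and less RNA per cell cannot be told apart. RNA quality, read as the excess of 3′ over 5′ actin control signal (log2), ranged over 0.96 to 1.39 in the 4 db/+ arrays, over 0.40 to 1.14 in the other 3 and over 0.48 to 0.92 in db/db. For the Gapdh control the same excess ranged over 0.72 to 0.99 in the 4 db/+ arrays, over 0.55 to 1.34 in the other 3 and over 0.505 to 0.868 in db/db.

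In db/db nerve, the degradation genes Sel1l and Edem1, the sensor gene Atf6 and the ATF4 target Sesn2 were higher over all arrays and over the 9 arrays, and Syvn1, Ern1 and Trib3 were higher over all arrays, with no call over the 9 arrays. Pdia3 was lower over all arrays, and Creld2, Manf and Herpud1 were lower over the 9 arrays. Of the sensors and transcription factors, Atf6 passed in both comparisons, Ern1 over all arrays, and Xbp1, Eif2ak3, Atf4 and Ddit3 in neither.

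Over all 13 arrays, 8 of 36 members (22.2%) passed an adjusted p of 0.05 (limma, Benjamini-Hochberg over all 15437 genes). Of all genes, 25.1% passed, so the members' share lay near the background. By direction, 7 members rose (19.4%), against 13.4% of all genes, and 1 fell (2.78%), against 11.7% of all genes. Over the 9 arrays, 7 members passed (19.4%), against 12.9% of all genes, with 4 higher (11.1% against 6.12%) and 3 lower (8.33% against 6.78%). That count moved when single arrays were left out. It was 2 without db/+ 407, beside 1164 of 15437 genes, 3 without db/+ 105 (1540 genes) or without db/+ 404 (1166 genes), and 4 without db/db 410 (1537 genes) or without db/db 411 (1501 genes). There were 11 members that passed at least once, 4 that passed in both comparisons and 25 that passed in neither. The same counts were not made over all genes and the 2 comparisons share arrays, so these numbers only describe the members. The median log2 difference of the members, db/db minus db/+, was 0.04 over all arrays and -0.07 over the 9 arrays, beside 0.02 and -0.05 for all genes. As a whole the 36 genes therefore lay close to the rest of the array, and the results below are given by branch and gene.

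**Figure D1:**
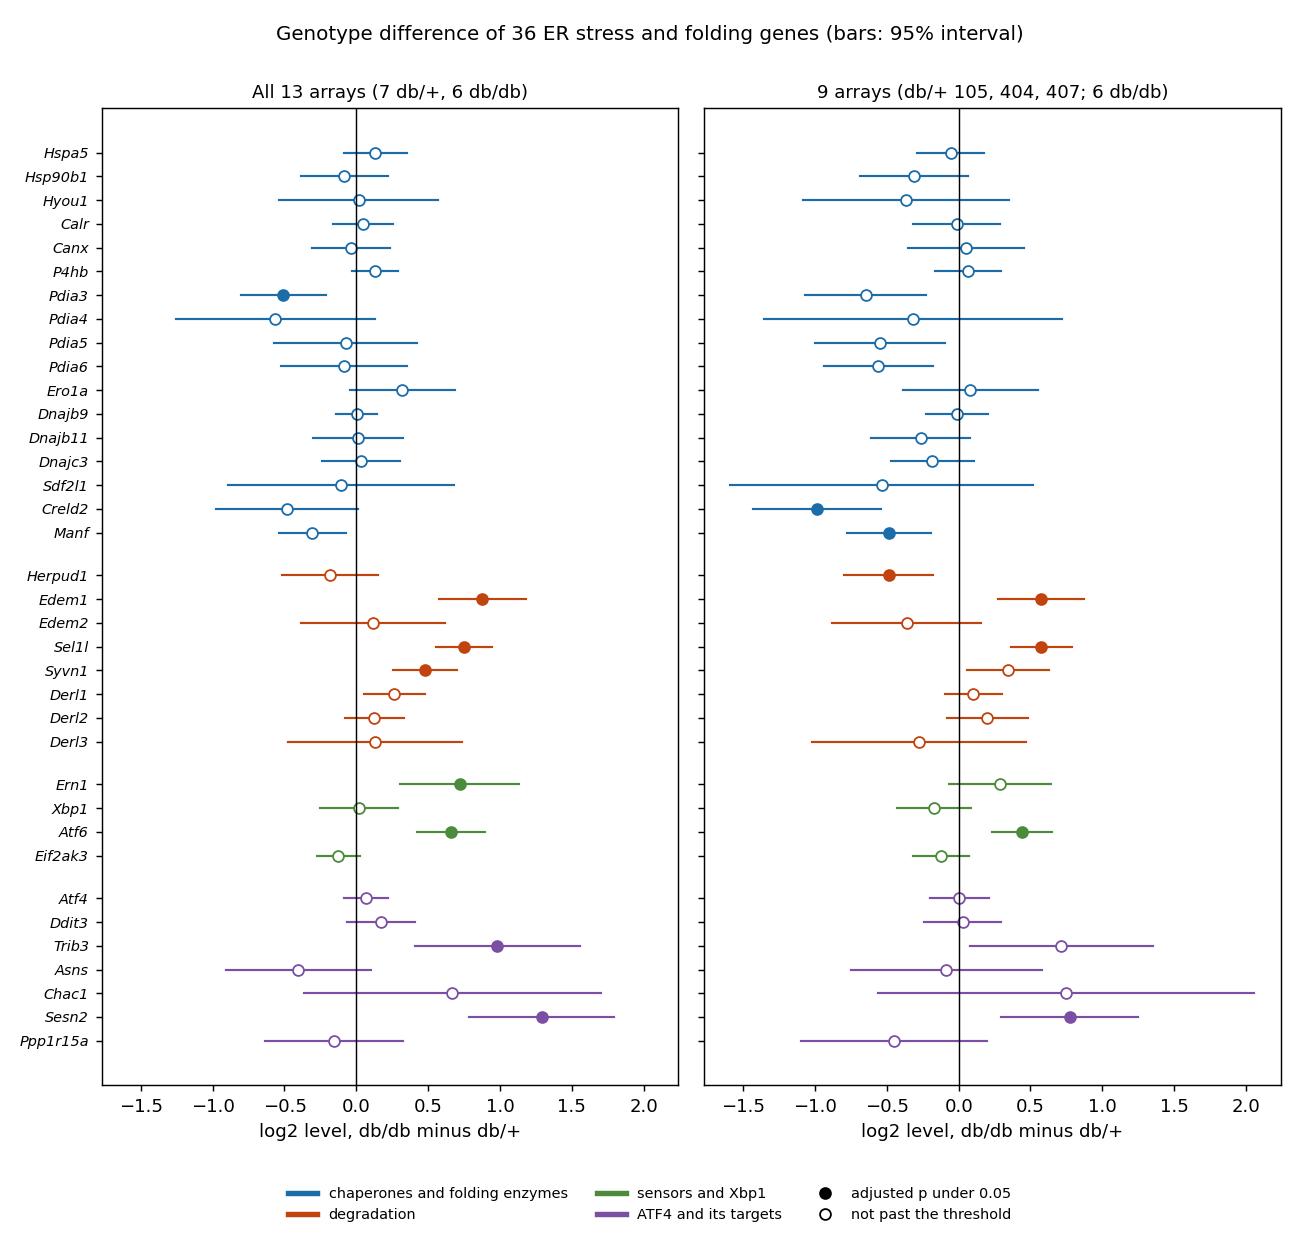
The plot gives the difference in log2 level, db/db minus db/+, for each of the 36 genes, over all 13 arrays on the left and over the 9 arrays on the right. Points are limma estimates, bars are 95% intervals, colours are the 4 branches, and filled points passed an adjusted p of 0.05. Filled points on the right of 0 are degradation, sensor and ATF4 genes, and those on the left of 0 are Pdia3, Creld2, Manf and Herpud1.

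Of the 8 degradation genes, 3 rose and 0 fell over all arrays, where 13.4% of all genes rose and 11.7% fell. Over the 9 arrays 2 rose and 1 fell, where 6.12% of all genes rose and 6.78% fell. Differences between branches were not tested. The branch median was 0.20 over all arrays and 0.15 over the 9 arrays. Sel1l encodes the adaptor that holds the membrane ubiquitin ligase HRD1 and its substrates together. In db/+ 101, 103, 104 and 106 its log2 level was 9.13, 9.09, 9.11 and 9.05, and in db/+ 105, 404 and 407 it was 9.54, 9.26 and 9.41. In db/db the lowest value was 9.88, the median 9.99 and the highest 10.04. Every db/db array lay above every db/+ array, and the spread within db/db (SD 0.07, n = 6) was a small part of the step. Sel1l was 1.68-fold higher over all arrays (log2 0.75, SE 0.0902, limma with Benjamini-Hochberg, adjusted p = 0.000116) and 1.49-fold higher over the 9 arrays (log2 0.58, SE 0.0954, adjusted p = 0.00538). It passed in each of the 13 and 9 fits that left out 1 array and also within each number series.

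Edem1 encodes a lectin that picks out glycoproteins whose mannoses have been trimmed and hands them to degradation. It stood at 9.57, 9.72, 9.77 and 9.71 in db/+ 101, 103, 104 and 106 and at 10.03, 10.19 and 10.42 in db/+ 105, 404 and 407. The db/db values ran from 10.64 through a median of 10.74 to 11.08. Again the groups did not overlap, and db/+ 105, 404 and 407 lay between the other 4 db/+ arrays and db/db. The rise was 1.84-fold over all arrays (log2 0.88, SE 0.141, limma adjusted p = 0.000885) and 1.49-fold over the 9 arrays (log2 0.58, SE 0.133, limma adjusted p = 0.0223). The 9-array call ended without db/+ 105 (log2 0.48) or without db/+ 404 (0.56).

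Syvn1 encodes HRD1 itself, the ligase that ubiquitinates proteins on their way out of the reticulum. Its levels were 8.98, 8.80, 8.76 and 8.95 in db/+ 101, 103, 104 and 106, against 9.01, 9.27 and 9.04 in db/+ 105, 404 and 407. In db/db they ran from 9.21 through a median of 9.43 to 9.71. Only db/+ 404 reached into the db/db range. The rise was 1.39-fold over all arrays (log2 0.48, SE 0.103, limma adjusted p = 0.0053). Without the 4 db/+ arrays the difference was 0.34 (SE 0.127, limma adjusted p = 0.11), and with number series as a block it passed at 0.38.

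Herpud1, which brings HRD1 and the Derlin proteins together and is itself induced in the unfolded protein response, went the other way over the 9 arrays. It was at 11.12, 11.50, 10.98 and 11.18 in db/+ 101, 103, 104 and 106, at 11.58, 11.87 and 11.74 in db/+ 105, 404 and 407, and between 10.99 and 11.45 in db/db, with a median of 11.29. The db/db arrays lay below the 3 db/+ arrays and overlapped the other 4. Over the 9 arrays it fell by 0.49 (SE 0.139, limma adjusted p = 0.0485), and over all arrays the difference was -0.18 (limma adjusted p = 0.41). The 9-array call ended in 8 of the 9 fits that left out 1 array (every array but db/db 112) and under median centring (-0.43) and array weights (-0.47), with differences from -0.56 to -0.42.

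The other 4 degradation genes did not pass. Derl1, a channel component, differed by 0.26 over all arrays (limma adjusted p = 0.0661) and by 0.10 over the 9 arrays. Derl2 differed by 0.13 and 0.20, Derl3 by 0.13 and -0.27, and the mannosidase-like Edem2 by 0.12 and -0.36. Edem2 and Derl3 were widest within db/+ (SD 0.55 and 0.62, n = 7), and for each of them db/+ 407 was the highest array of all 13, at 10.59 and 7.28.

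**Figure D2:**
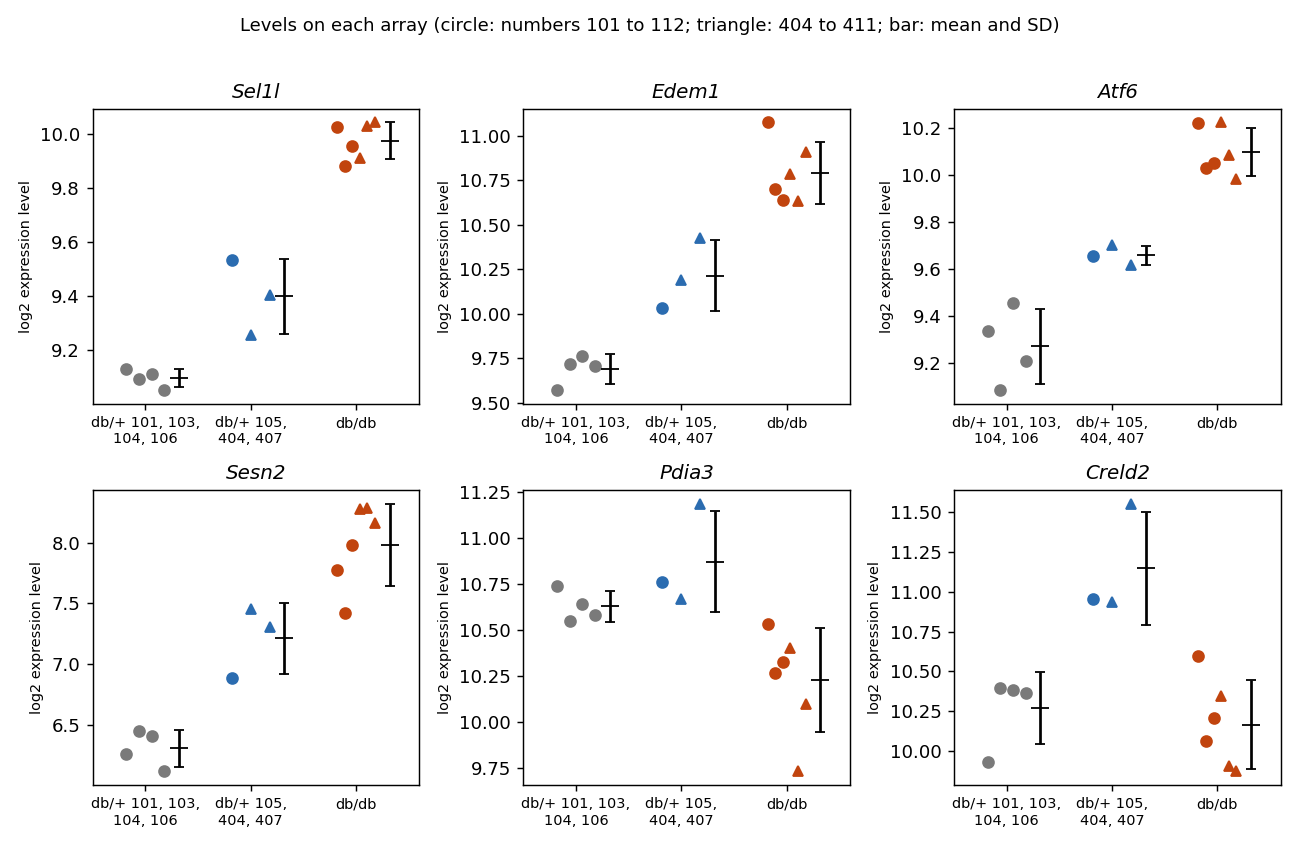
Each panel gives the log2 expression level of 1 gene on each array, for db/+ 101, 103, 104 and 106 (grey), db/+ 105, 404 and 407 (blue) and db/db (red). Circles are sample numbers 101 to 112, triangles 404 to 411, and bars are mean and SD. Sel1l, Edem1 and Atf6 show db/db above every db/+ array, and Pdia3 shows it below. In Creld2 the db/db arrays lie below db/+ 105, 404 and 407 but among the other 4.

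The chaperones and folding enzymes gave 0 rises of 17 in either comparison, with 1 fall over all arrays and 2 over the 9 arrays. With 13.4% of all genes higher and 11.7% lower over all arrays, and 6.12% higher and 6.78% lower over the 9 arrays, counts this small in 17 genes do not set the chaperones apart. Their median difference was -0.04 over all arrays and -0.31 over the 9 arrays, beside 0.02 and -0.05 for all genes. Over the 9 arrays 14 of 17 lay below 0, beside 8651 of 15437 genes. Hspa5 encodes BiP, the HSP70 of the reticulum that holds the sensors inactive and is the usual marker of the response. It was at 12.38, 12.57, 12.61 and 12.57 in db/+ 101, 103, 104 and 106, at 12.74, 12.85 and 12.98 in db/+ 105, 404 and 407, and between 12.69 and 12.98 in db/db with a median of 12.78. The db/db arrays overlapped db/+ in both comparisons. The difference was 0.13 over all arrays (95% interval -0.09 to 0.35, limma adjusted p = 0.365) and -0.06 over the 9 arrays (-0.29 to 0.18, limma adjusted p = 0.776).

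Pdia3 encodes ERp57, the disulfide isomerase that works on glycoproteins bound to calnexin and calreticulin. Its levels were 10.74, 10.55, 10.64 and 10.58 in db/+ 101, 103, 104 and 106, whereas db/+ 105, 404 and 407 gave 10.76, 10.67 and 11.19. In db/db they ran from 9.73 through a median of 10.30 to 10.53. All 6 db/db arrays lay below all 7 db/+ arrays, with db/db 410 and 411 lowest. Pdia3 was 1.42-fold lower over all arrays (log2 -0.51, SE 0.137, limma adjusted p = 0.0179). Against db/+ 105, 404 and 407 the difference was -0.65 (SE 0.187, limma adjusted p = 0.0508), which passed with number series as a block (-0.67). Within arrays 101 to 112 it was -0.28 and within arrays 404 to 411 it was -0.85, and neither passed alone.

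Creld2, a secreted disulfide isomerase induced by ATF6, stood at 9.93, 10.39, 10.38 and 10.36 in db/+ 101, 103, 104 and 106, against 10.95, 10.93 and 11.56 in db/+ 105, 404 and 407. The db/db arrays ranged from 9.87 to 10.60 with a median of 10.13. They thus shared the range of the 4 db/+ arrays and lay wholly below the other 3. Against these 3, Creld2 was 1.98-fold lower (log2 -0.98, SE 0.199, limma adjusted p = 0.0126), and over all arrays the difference was -0.48 (SE 0.23, limma adjusted p = 0.141). Without db/+ 407 the 9-array difference was -0.78 and did not pass.

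Manf, a secreted survival factor that stabilises BiP with its clients, was at 11.41, 11.52, 11.45 and 11.41 in db/+ 101, 103, 104 and 106, at 11.68, 11.67 and 11.92 in db/+ 105, 404 and 407, and between 11.04 and 11.45 in db/db, with a median of 11.32. As for Creld2, all db/db arrays lay below db/+ 105, 404 and 407. Unlike Creld2, most also lay below the other db/+ arrays: db/db 111, 112, 410 and 411 did, with 410 and 411 lowest. It fell by 0.48 over the 9 arrays (SE 0.129, limma adjusted p = 0.0387) and differed by -0.31 over all arrays (SE 0.109, limma adjusted p = 0.0539). Over all arrays it passed under 4 of the 10 other settings. That 9-array call ended in 7 of 9 fits that left out 1 array (db/+ 105, 404 and 407 and db/db 111, 112, 410 and 411), where differences ran from -0.53 to -0.40. Median centring (-0.43) and array weights (-0.50) also ended it.

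The other 14 chaperones passed in neither comparison. Hsp90b1, which encodes GRP94, the HSP90 of the reticulum, differed by -0.09 over all arrays and by -0.31 over the 9 arrays (95% interval -0.69 to 0.07). Hyou1, a large HSP70 that exchanges nucleotide on BiP, differed by 0.02 and -0.36 and ran from 7.54 to 9.01 within db/+ alone. The lectin chaperone Calr differed by 0.05 and -0.01, and its membrane-bound partner Canx by -0.04 and 0.05. These lectins hold glycoproteins while they fold, and their differences were within 0.1 in both comparisons.

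Of the oxidoreductases, P4hb, which encodes PDI and also serves as a subunit of collagen prolyl hydroxylase, differed by 0.13 and 0.07. Pdia4 differed by -0.56 and -0.32, and its db/db levels were split by number series, with 7.07 to 7.73 in 409, 410 and 411 against 8.60 to 8.77 in 110, 111 and 112. Among db/+ arrays it was at 7.41 in 404 and between 8.59 and 8.99 in the other 6. Pdia5 differed by -0.08 over all arrays and -0.55 over the 9 arrays (limma adjusted p = 0.11). Pdia6 stood at 11.43, 11.34 and 11.93 in db/+ 105, 404 and 407, above all 6 db/db arrays (10.86 to 11.29) and above the other 4 db/+ arrays (10.62 to 10.86). Its difference was -0.09 over all arrays and -0.56 over the 9 arrays (SE 0.169, limma adjusted p = 0.0589). Ero1a, listed by its older name Ero1l, encodes the oxidase that recharges PDI. It was the chaperone gene with the greatest positive difference over all arrays, 0.32 (95% interval -0.04 to 0.69, limma adjusted p = 0.182), and differed by 0.08 over the 9 arrays.

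The J-domain partners of BiP were close to 0 over all arrays: Dnajb9 differed by 0.0020, Dnajb11 by 0.01 and Dnajc3 by 0.03. Over the 9 arrays they differed by -0.01, -0.26 and -0.18. Sdf2l1, which attends BiP and Dnajb11, differed by -0.11 and -0.54, with 95% intervals of -0.89 to 0.68 and -1.59 to 0.52. Dnajb9 was the steadiest of the 36 genes across the 13 arrays (SD 0.076), and Sdf2l1 (SD 0.68) and Pdia4 (0.67) were the least steady chaperones.

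Much of the chaperone result depended on which db/+ arrays served as controls. The mean of the 17 chaperones was 10.87, 10.84, 10.99 and 10.93 in db/+ 101, 103, 104 and 106, against 11.28, 10.96 and 11.57 in db/+ 105, 404 and 407. For db/db 110, 111 and 112 it was 11.29, 11.08 and 11.01. It was 10.67 in db/db 410 and 10.78 in db/db 411, while db/db 409 lay just below db/db 112. Array db/+ 407 was the highest of all 13 for 11 of 17 chaperones, and db/db 410 was the lowest for 7. Without db/+ 407 the median over the 9 arrays was -0.10. Between the 2 sets of db/+ arrays, 30 of 36 members had a higher mean in db/+ 105, 404 and 407 than in the other 4, by a median of 0.36, beside 9794 of all 15437 genes and a median of 0.14.

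Other cell types moved among the same arrays. Fibroblast markers averaged 12.95 to 13.04 in db/+ 105, 404 and 407, 12.46 to 12.76 in the other 4 db/+ arrays and 12.52 to 12.79 in db/db. Of these markers 6 of 6 lay below 0 over the 9 arrays, beside 8651 of 15437 genes, and 1 passed. Macrophage markers were highest in db/+ 407 (12.81) among db/+ and in db/db 110 (12.92) among db/db arrays. Plasma and B cell markers, 7 of 8 measured, were 9.21 and 9.17 in db/db 110 and 112 against 8.05 to 8.23 in the remaining 4 db/db arrays, and among db/+ they ran from 8.24 to 8.68 for 105, 404 and 407 and from 7.79 to 8.58 for the rest. Of the adipocyte markers, 4 of 6 were measured, with means of 12.41 to 13.32 in db/+ and 13.52 to 13.62 in db/db. No marker was at 0 on this log scale, which carries no detection calls. The part of these cells in the chaperone and degradation differences was not tested.

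**Figure D3:**
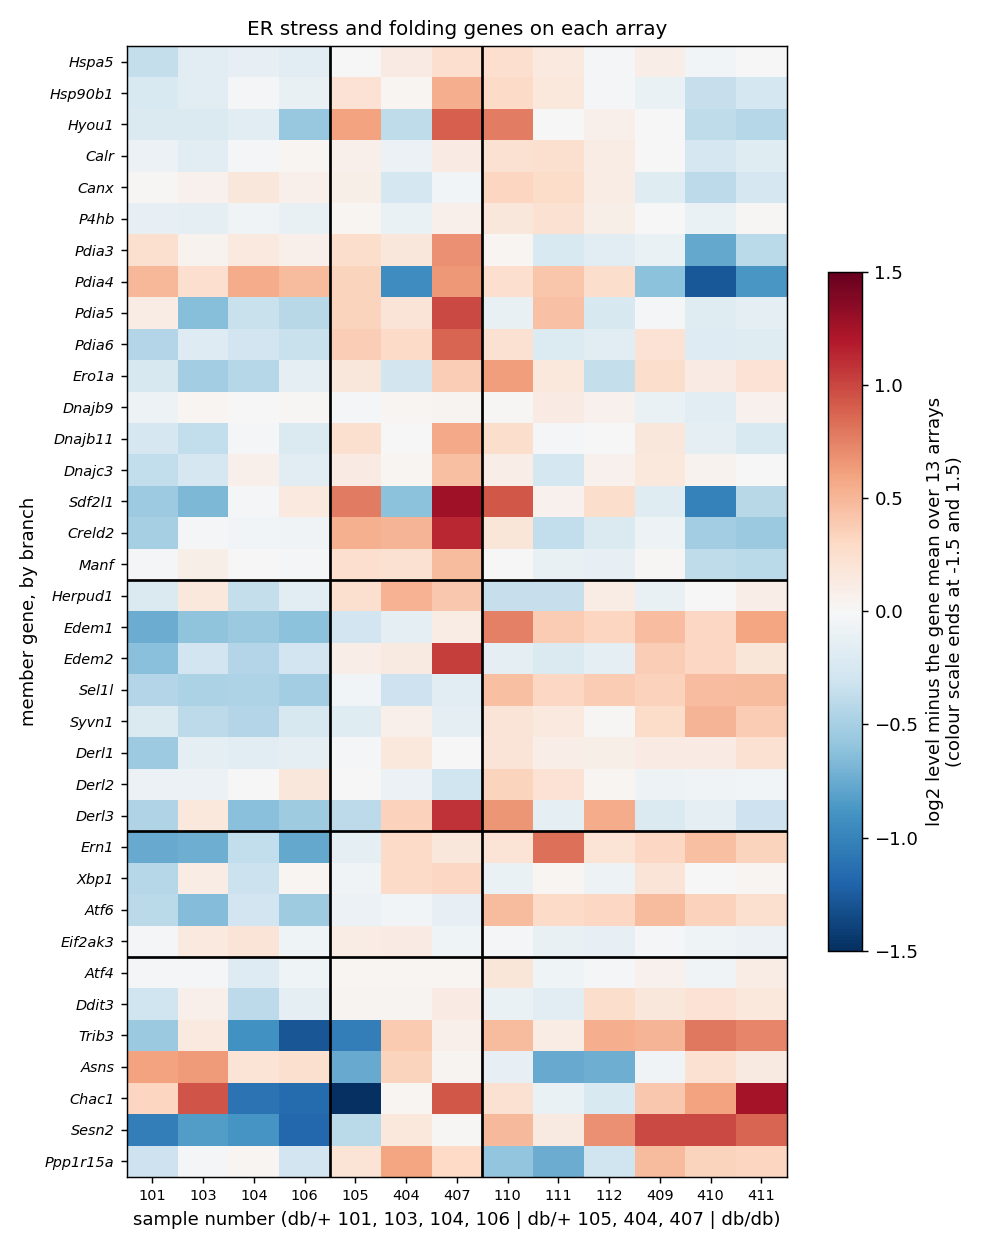
Each row is 1 of the 36 genes and each column 1 array, coloured by log2 level minus the mean of that gene over 13 arrays (red higher, blue lower, ends at -1.5 and 1.5). Vertical lines separate db/+ 101, 103, 104 and 106, db/+ 105, 404 and 407, and db/db, and horizontal lines separate the 4 branches. The mean of the chaperones is highest in db/+ 407 and lowest in db/db 410 and 411, while Edem1, Sel1l and Atf6 are red in all 6 db/db arrays.

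Among the sensors, Atf6 was higher in both comparisons and Ern1 over all arrays, and Eif2ak3 and Xbp1 passed in neither. The branch median over its 4 genes was 0.34 over all arrays and 0.08 over the 9 arrays. Atf6 encodes the sensor that is cut in the Golgi to free a transcription factor for chaperone and degradation genes. Its levels were 9.34, 9.09, 9.46 and 9.21 in db/+ 101, 103, 104 and 106, against 9.66, 9.70 and 9.62 in db/+ 105, 404 and 407. The db/db levels ran from 9.98 through a median of 10.07 to 10.22. The groups did not overlap. Atf6 rose 1.58-fold over all arrays (log2 0.66, SE 0.109, limma adjusted p = 0.0011) and 1.36-fold over the 9 arrays (log2 0.44, SE 0.0934, limma adjusted p = 0.0157). Without db/+ 407 the 9-array difference was 0.42 and did not pass.

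Ern1 encodes IRE1, the kinase and nuclease that splices Xbp1 RNA. It was at 4.89, 4.92, 5.28 and 4.88 in db/+ 101, 103, 104 and 106, at 5.50, 5.93 and 5.82 in db/+ 105, 404 and 407, and between 5.85 and 6.47 in db/db with a median of 5.97. These are low values for these arrays, where differences of dim genes are compressed. Ern1 rose 1.65-fold over all arrays (log2 0.72, SE 0.193, limma adjusted p = 0.0172), and over the 9 arrays the difference was 0.29 (SE 0.159, limma adjusted p = 0.277). The db/+ 404 and 407 values lay close to the lower end of db/db, and db/+ 105 lay between db/db and the other 4 db/+ arrays.

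Xbp1, the factor that IRE1 activates, differed by 0.02 over all arrays (95% interval -0.25 to 0.29) and by -0.17 over the 9 arrays (-0.43 to 0.08). Its probe set gives the total transcript, and spliced Xbp1 was not analysed here. Eif2ak3, which encodes PERK, differed by -0.13 (-0.28 to 0.02) and -0.12 (-0.32 to 0.07). The limma adjusted p-values of Xbp1 were 0.927 and 0.366 and those of Eif2ak3 0.196 and 0.395.

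In the ATF4 branch, 2 of 7 genes rose over all arrays, Sesn2 and Trib3, and 1 over the 9 arrays, Sesn2, with 0 falls in either. That is 28.6% of the branch against 13.4% of all genes over all arrays, and 14.3% against 6.12% over the 9 arrays. Counts this small in 7 genes do not set the branch apart. The median was 0.17 over all arrays and 0.03 over the 9 arrays. Sesn2 encodes sestrin 2, a leucine-binding inhibitor of mTORC1. It had the greatest difference of the 36 genes over all arrays. Its levels were 6.26, 6.45, 6.40 and 6.11 in db/+ 101, 103, 104 and 106, against 6.88, 7.45 and 7.30 in db/+ 105, 404 and 407. The db/db arrays had a lowest level of 7.42, a median of 8.07 and a highest of 8.29. Only db/db 111, at 7.42, lay below the highest db/+ array, sample 404 at 7.45. Sesn2 was 2.45-fold higher over all arrays (log2 1.29, SE 0.235, limma adjusted p = 0.00206) and 1.71-fold higher over the 9 arrays (log2 0.77, SE 0.213, limma adjusted p = 0.0428). The 9-array call ended in 8 of the 9 fits that left out 1 array (every array but db/db 111), with differences from 0.61 to 0.89. Sesn2 passed within arrays 101 to 112 (1.30) and within arrays 404 to 411 (0.87).

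Trib3 encodes a pseudokinase that restrains AKT and ATF4. It was at 7.24, 7.94, 6.88 and 6.51 in db/+ 101, 103, 104 and 106, at 6.76, 8.18 and 7.87 in db/+ 105, 404 and 407, and between 7.90 and 8.59 in db/db with a median of 8.32. The db/+ arrays were widely spread (SD 0.66, n = 7) and db/db arrays close together (SD 0.24, n = 6). Trib3 was 1.97-fold higher over all arrays (log2 0.98, SE 0.266, limma adjusted p = 0.0183). With the 9 arrays the difference was 0.71 (SE 0.284, limma adjusted p = 0.134), and 0.81 with number series as a block, where it passed.

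Atf4 itself, the factor whose translation PERK promotes, differed by 0.07 over all arrays (95% interval -0.08 to 0.22) and by 0.01 over the 9 arrays (-0.20 to 0.21). Ddit3, which encodes the death-associated factor CHOP, differed by 0.17 (-0.07 to 0.41) and 0.03 (-0.24 to 0.29). Ppp1r15a, the phosphatase subunit GADD34 that reverses the translation block, differed by -0.16 and -0.45. Asns, which makes asparagine, differed by -0.40 and -0.09, and Chac1, which degrades glutathione, by 0.67 and 0.75. Chac1 was the most variable member over all 13 arrays (SD 0.96), from 5.86 in db/+ 105 to 9.23 in db/db 411. Its intervals (-0.37 to 1.70 and -0.56 to 2.06) were wide. They include no difference and reach further on the side of a rise than of a fall. None of these 5 genes passed in either comparison by limma with Benjamini-Hochberg adjustment.

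Each number series held both genotypes, with 5 db/+ and 3 db/db arrays in 101 to 112 and 2 db/+ and 3 db/db arrays in 404 to 411. The median of the chaperones had opposite signs in them. In arrays 101 to 112 their median difference was 0.20, with 13 of 17 above 0, beside 8404 of 15437 genes. In arrays 404 to 411 it was -0.52, with 16 of 17 below 0, beside 8279 genes. The difference between series was below 0 for 17 of 17 chaperones and for 32 of 36 members, beside 8755 of 15437 genes. In limma's test of that difference, 11 of 36 members (30.6%) had an unadjusted p under 0.05, against 15.3% of all genes, and 0 members and 0 of all genes passed after Benjamini-Hochberg adjustment. The 11 were Hspa5, Hsp90b1, Calr, Pdia3, Pdia5, Pdia6, Creld2 and Manf among chaperones, and Edem1, Derl3 and Ern1. Derl3, an inducible Derlin, went from 0.73 in arrays 101 to 112 to -0.93 in arrays 404 to 411, the greatest shift of the 36 (-1.66, limma adjusted p = 0.222).

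Because db/+ 101, 103, 104 and 106 all stand in the lower series, and only 2 db/+ arrays stand in the higher, the series and the division among db/+ arrays cannot be told apart for much of this shift. Within db/db, which leaves out the db/+ arrays, 110, 111 and 112 lay above 409, 410 and 411 on every array in 6 of 17 chaperones (13.1% of all genes) and below in 0 (19.4% of all genes). Of the ATF4 branch, 4 of 7 genes lay the other way, lower in 110 to 112 on every array, and 0 of 7 lay higher. Those 4 were Asns, Chac1, Sesn2 and Ppp1r15a. Sesn2 ranged from 7.42 to 7.98 in 110 to 112 and from 8.17 to 8.29 in 409 to 411, and Ppp1r15a from 8.47 to 8.91 and from 9.52 to 9.68.

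The median of the 8 degradation genes was 0.37 in arrays 101 to 112, with 7 above 0, and 0.11 in arrays 404 to 411, with 5 above 0. Of all 15437 genes, 8404 and 7158 lay above 0. Sel1l differed by 0.77 and 0.66, Syvn1 by 0.42 and 0.43, and Edem1 by 1.05 and 0.47. Atf6 differed by 0.75 and 0.44, and Ern1 by 0.96 and 0.14. In arrays 404 to 411 alone, Sel1l, Sesn2 and Creld2 passed, 8.33% of the members against 9.1% of all genes, so this count lay near the background. Creld2 differed there by -1.21 (limma adjusted p = 0.0487) against -0.12 in arrays 101 to 112.

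**Figure D4:**
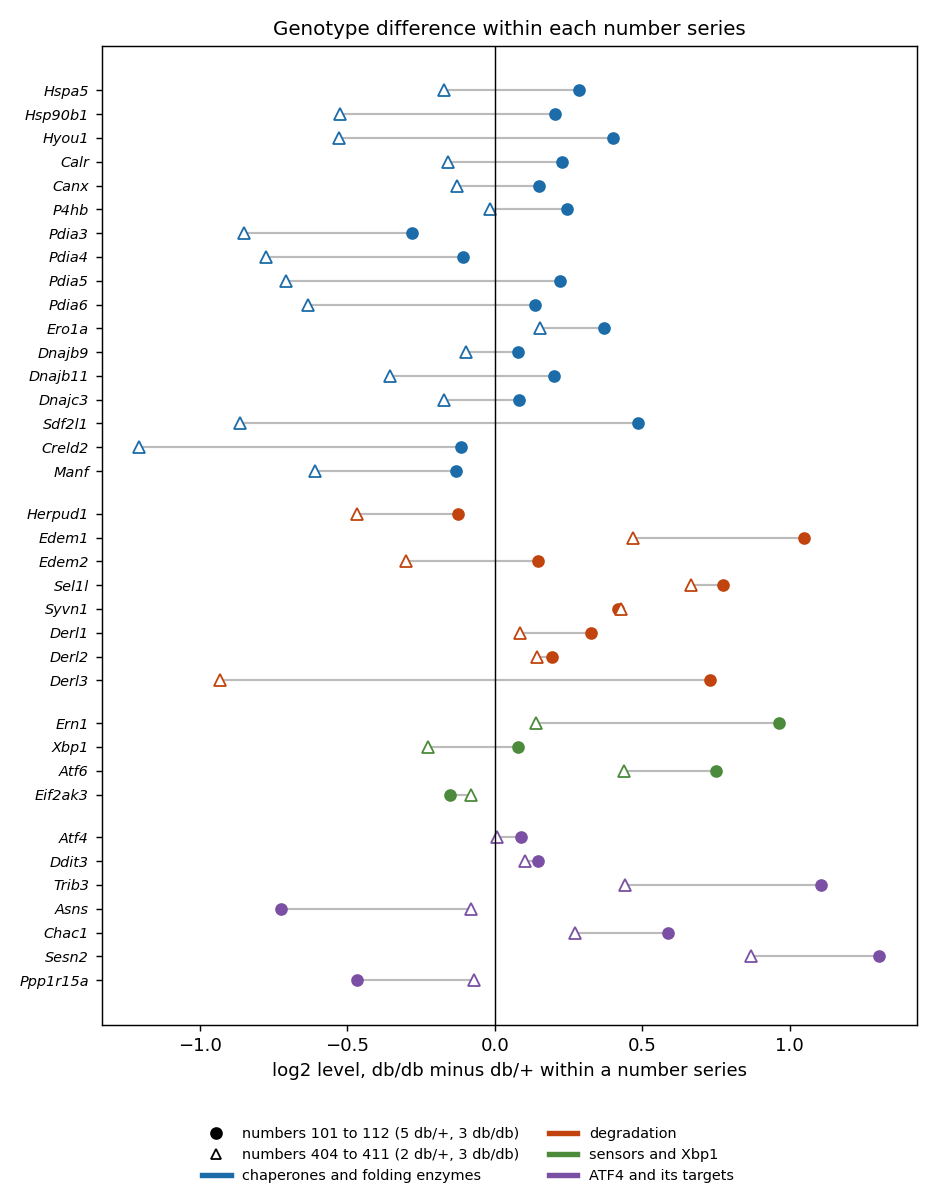
For each gene the filled circle is the difference in log2 level, db/db minus db/+, within arrays 101 to 112 and the open triangle the same within arrays 404 to 411. Colours are the branches. The triangles of all 17 chaperones lie to the left of their circles, while those of genes such as Syvn1, Sel1l and Derl2 nearly meet them.

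The 9 members with an ERSE in the promoter sites printed or named above did not share a direction over all arrays. Their median was 0.03 over all arrays and -0.18 over the 9 arrays, with Syvn1 higher over all arrays and Creld2 lower over the 9 arrays. Within the number series 8 of 9 were above 0 in arrays 101 to 112 (Creld2 was not), beside 8404 of 15437 genes. In arrays 404 to 411, 8 of 9 were below 0 (Syvn1 was not), beside 8279 genes. Of the 9, 7 are chaperones, and the 17 chaperones as a branch had 13 above 0 and 16 below 0 in the same series. Syvn1 and Hspa5 hold the same letters at similar distances from the start. Over all arrays Syvn1 differed by 0.48 (95% interval 0.26 to 0.70) and Hspa5 by 0.13 (-0.09 to 0.35). These intervals overlap, which does not compare the genes, and Syvn1 was not tested against Hspa5. The part of the element in either difference was not tested. The windows of Sel1l and Edem1, the members that rose most in the degradation branch, held none of the 4 patterns, which says only that these letters are not in these windows.

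A further 133 genes of the pathway (of 147 listed) were read from the same fits, in 4 lists. Of 36 other folding and glycan quality control genes, 4 rose and 3 fell over all arrays, and 0 rose and 4 fell over the 9 arrays, with medians of -0.0027 and -0.15. P4ha1, a collagen prolyl hydroxylase subunit, fell by 0.58 over all arrays (limma adjusted p = 0.0188) and by 0.85 over the 9 arrays (limma adjusted p = 0.00599). Cnpy2 fell by 0.56 (limma adjusted p = 0.00458) and the calcium-binding Nucb2 by 0.74 (limma adjusted p = 0.0105) over the 9 arrays. Mcfd2, which with LMAN1 carries glycoproteins out of the reticulum, rose by 0.38 over all arrays (limma adjusted p = 0.00316), and Clgn, a calnexin relative, fell by 1.73 there (limma adjusted p = 0.0224). Clgn was 5.31 to 8.60 within db/+ and 5.01 to 5.62 in db/db, and differed by -0.57 over the 9 arrays. The list's shares were 11.1% higher and 8.33% lower over all arrays, near the 13.4% and 11.7% of all genes. Over the 9 arrays they were 0% higher and 11.1% lower, against 6.12% and 6.78%, and counts this small do not set the list apart. There 29 of 36 lay below 0, beside 8651 of 15437 genes.

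Of 35 other genes of degradation and translocation, 7 rose and 1 fell over all arrays, and 3 rose and 0 fell over the 9 arrays. That is 20% higher against 13.4% of all genes over all arrays, and 8.57% against 6.12% over the 9 arrays. Their medians were 0.11 and 0.0028. The 3 genes that rose over the 9 arrays were Ufd1, Nploc4 and Ube2g2. Ufd1 and Nploc4 encode the partners of the ATPase p97 that draws proteins out of the membrane, and Ube2g2 encodes a ubiquitin-conjugating enzyme of the same route. Ufd1 rose by 0.42 over all arrays (limma adjusted p = 0.00259) and 0.49 over the 9 arrays (limma adjusted p = 0.016). Ube2g2 rose by 0.58 (limma adjusted p = 0.00298) and 0.49 (limma adjusted p = 0.0231), and Nploc4 by 0.36 over the 9 arrays (limma adjusted p = 0.0362). For all 3 every db/db array lay above every db/+ array, as 6.17% of all genes did. Among the 36 members, Sel1l, Edem1 and Atf6 lay so and Pdia3 lay wholly below, as 3.51% of all genes did. Against the 3 db/+ arrays alone, Sel1l, Edem1 and Atf6 lay wholly above (8.98% of all genes) and Pdia3, Pdia6, Creld2, Manf and Herpud1 wholly below (9.99% of all genes). Dad1, a subunit of the glycan transferase, rose by 0.34 over all arrays (limma adjusted p = 0.0102).

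Of 19 other sensors and factors, 1 rose over all arrays, and 1 rose and 1 fell over the 9 arrays, with medians of 0.05 and -0.01. The share of 5.26% higher over all arrays lay below the 13.4% of all genes, and over the 9 arrays 5.26% in each direction lay near the 6.12% and 6.78% of all genes. Creb3l2, a relative of ATF6 that governs secretory capacity, rose by 0.51 over all arrays (limma adjusted p = 0.00275) and 0.42 over the 9 arrays (limma adjusted p = 0.0459). Creb3l1, its relative tied to collagen secretion, fell by 0.77 over the 9 arrays (limma adjusted p = 0.0156). These relatives thus went in opposite directions over the 9 arrays.

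Of the 4 pathway lists, the 43 other targets of ATF4 and CHOP held the largest share of rises, 12 against 2 falls over all arrays and 7 against 0 over the 9 arrays. That is 27.9% higher against 13.4% of all genes, and 16.3% against 6.12%, with medians of 0.10 and 0.01. Vldlr, a lipoprotein receptor, rose by 0.87 (limma adjusted p = 7.67e-05) and 0.74 (limma adjusted p = 0.00585), from 10.56 to 10.90 in db/+ up to 11.37 to 11.81 in db/db. Fgf21, a hormone of the fasting and stress responses, rose by 1.33 (limma adjusted p = 0.00026) and 1.21 (limma adjusted p = 0.0138), from 4.24 to 5.04 in db/+ up to 5.40 to 6.34 in db/db. Tnfrsf10b, the death receptor that CHOP induces, rose by 1.12 over all arrays (limma adjusted p = 0.000856), from 4.60 to 5.46 up to 5.62 to 6.61. Psat1, an enzyme of serine synthesis, rose by 0.43 over the 9 arrays (limma adjusted p = 0.0114). In all 4 the groups did not overlap, although Fgf21 and Tnfrsf10b sat low in the range of the array. These 4 were named for their small p. Of the 43 genes, 9 lay wholly higher in db/db over all arrays, as 6.17% of all genes did. The lists were chosen with earlier results of these data known, so their counts describe and do not test the pathway.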

How the data were processed

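Per the labels' protocols, total RNA of 13 nerve samples was amplified and biotin-labelled, and each was read on its own 1-colour Affymetrix array. Expression was deposited as log2 levels that the authors made with RMA, per the submitters' processing notes. RMA removes differences in total signal between arrays and compresses folds of dim genes, and which RMA version and probe set definition were used is not given in the sources used here. Of 15479 probe sets, 42 controls were left out, and 14801 of the other 15437 carried 1 gene symbol and 636 none. The 36 members, the pathway lists and the marker lists were chosen with earlier results of these data known. The text names every member, gives array values for members past the threshold in either comparison, and names from each pathway list up to 3 passing genes with the smallest p in each comparison.

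Genotype was tested two-sided in R 4.3.3 with limma 3.58.1 (lmFit, eBayes), with Benjamini-Hochberg adjustment over 15437 genes and a threshold of 0.05. SEs and 95% intervals come from these fits. On simulated data the test over all arrays recovered 73% of genes shifted by 1 and 95% of those shifted by 2 (6 false of 174 calls), and over 9 arrays 52% and 89% (12 of 153). The simulated noise was normal and independent between genes and arrays, with each gene's SD taken from the fit over all arrays in both runs. It held no number series and no division among db/+ arrays, so these shares describe the test on such noise only. Other settings were moderation with a trend, further normalization, a filter on dim genes, array weights, number series as a block or alone, a minimum fold, an exact rank-sum test and leaving out each array. Promoter windows are RefSeq's. Protein sequences and Lepr were not analysed here. Tables and plots used Python 3.11.15, pandas 2.3.3, numpy 2.4.6 and matplotlib 3.10.9.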

Additional observations from a re-analysis of the deposited data

Results flagged for a closer look

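In 72 groups of arrays (36 genes, db/+ and db/db), 4 held an array far from the rest, by the ratio of its gap to the range of the group, and chance alone gives about 1 in 20 groups. Pdia3 was highest in db/+ 407, at 11.19 against 10.76 in the next array (ratio 0.667). Pdia4 was lowest in db/+ 404, at 7.41 against 8.59 (ratio 0.748). Pdia5 was highest in db/db 111, at 10.29 against 9.83 (ratio 0.68). Asns was lowest in db/+ 105, at 10.57 against 11.37 (ratio 0.572). Of these only Pdia3 passed in a comparison, and without db/+ 407 its difference over all arrays was -0.43 and still passed. In 0 of the 36 genes did every array of the 2 number series move in opposite directions.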

How the results depend on the processing

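No gene that passed changed sign under the settings tried. Branch medians, which have no test, did: the chaperone median over all arrays (-0.04) was 0.20 in arrays 101 to 112 only, 0.07 without db/+ 407, 0.02 with array weights and 0.01 with median centring, and the sensor median over the 9 arrays turned as given below. The 8 members over all arrays, beside 3867 of 15437 genes, became 3 in arrays 404 to 411 only (2 higher, 1 lower), beside 1404 genes. The count stayed between 7 and 11 under the other 10 settings, and the 11 came with array weights, where 6525 genes passed. Without any 1 array it stayed between 8 and 9, while the genes that passed ran from 2893 to 4529. The 7 members over the 9 arrays became 4 with a minimum log2 difference of 0.5 and ranged from 2 to 7 without 1 array: 2 without db/+ 407, 3 without db/+ 105, 3 without db/+ 404, 4 without db/db 410 and 4 without db/db 411. The chaperone median over all arrays was -0.52 in arrays 404 to 411 only and -0.11 to 0.07 without 1 array, and over the 9 arrays -0.43 to -0.10. The sensor median over all arrays was 0.020 with the dimmest 0.25 of genes left out, where Ern1 is dropped, 0.029 in arrays 404 to 411 only and 0.30 to 0.39 without 1 array. Over the 9 arrays it was -0.12 with those genes left out and 0.03 to 0.14 without 1 array. Degradation medians without 1 array were 0.16 to 0.31 and 0.10 to 0.19, and ATF4 medians 0.12 to 0.22 and 0.0037 to 0.14. The 0 members whose difference changed between number series stayed 0 in 4 settings. Arrays 404 to 411 only hold 5 arrays, and the causes of the other changes were not tested. No paired analysis was possible because the genotypes share no sample numbers.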

Other observations

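Several further ATF4 and CHOP targets passed, here named after their values were seen. Cth, which makes cysteine, rose by 1.41 over all arrays (limma with Benjamini-Hochberg, adjusted p = 0.00843) and by 1.14 over the 9 arrays (limma adjusted p = 0.029), and db/+ 404, at 8.87, was the only db/+ array above the lowest db/db array (8.76). Stc2, a secreted glycoprotein of calcium handling, rose by 1.32 (limma adjusted p = 0.00255) and 0.93 (limma adjusted p = 0.017), with db/+ at 5.62 to 7.48 and db/db at 7.62 to 8.05. Xpot, the exporter of transfer RNA, rose by 0.42 (limma adjusted p = 0.0041) and 0.50 (limma adjusted p = 0.0233). Its groups did not overlap, and 6.17% of all genes lay wholly higher in db/db over all arrays. Atf3, a stress-induced factor that also marks injured neurons and Schwann cells, rose by 0.88 over all arrays (limma adjusted p = 0.00528) and differed by 0.83 over the 9 arrays (limma adjusted p = 0.0656). Slc6a9, a glycine transporter, and Ndrg1, a gene of Schwann cells, were the 2 that fell over all arrays, by 0.66 and 0.52 (limma adjusted p = 0.0347 and 0.00786). Beside these rises, Asns, Ddit3 and Atf4 passed in neither comparison.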
